A study of Mus musculus with 22 samples.

Results

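Skipped exons of 61 to 200 bases whose length is a multiple of 3 were followed through 6 epithelial cell types of the mouse colon crypt. They were taken from tables of skipped exons, each of which sets stem cells against 1 other cell type, by the exon's length alone. A member is 1 event, that is, an exon with its pair of flanking exons. In the 5 tables together, 3383 of 10801 events (31.3%) were members, from 3181 exons of 2438 genes. Of the others, 4894 were exons of the same size that shift the frame, 1369 were shorter and 1155 were longer.

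Bulk RNA was sequenced from colon cells of wild type, untreated male C57BL/6N mice aged 5 to 7 weeks. Live cells that were Epcam+, Cd31- and Cd45- were sorted further. Stem cells (Stem, n = 3 libraries) were gated as Cd44highest, Cd24low and Ckit-, absorptive progenitors (AbsPro, n = 3) as Cd44med/hi, Cd24low and Ckit-, and SecPDG (n = 4), a mix of secretory progenitors with deep crypt secretory and goblet cells, as Cd44hi, Cd24med and Ckitmed. Tuft cells (n = 5) were Ckit+ and Cd24hi, enterocytes (Ent, n = 5) Cd44low/- and Cd24-, and enteroendocrine cells (EEC, n = 2) Cd44low/- and Cd24+. By the study's methods each Stem and AbsPro library came from a single mouse, the other libraries each pooled mice, and replicates came from independent mice and sorts.

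A cassette exon is an exon that the spliceosome either joins into the mRNA or leaves out together with its flanking introns. Leaving out an exon whose length is a multiple of 3 keeps the codons downstream in register, so that the protein can lose or gain an inner stretch, whereas other lengths shift the reading frame and commonly bring an early stop codon. In epithelia, exons of this kind are known from genes of adhesion, the cytoskeleton and membrane traffic, and variable exons of Cd44, the hyaluronan receptor, are a classical case.

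The exons on which the values below turn are shown first, read 5′ to 3′ on the coding strand from GENCODE M21 transcripts (GRCm38, the mm10 assembly), with the last 3 bases, which border the downstream 5′ splice site, in capitals. They are wholly coding exons whose inclusion differed widely between cell types or that lie in genes the study discusses, and they were chosen with their values known. On the minus strand of chromosome 2 lie Ctnnd1 (chr2:84605184-84605246, exon 18 of 20), Golga1 (chr2:39048310-39048438, exon 8 of 23) and Abi1 (chr2:22950184-22950270, exon 9 of 11). Spen (chr4:141485559-141485672, exon 9 of 15) is also on the minus strand. On the plus strand lie Tlk2 (chr11:105240361-105240456, exon 7 of 21), Calml4 (chr9:62868677-62868817, exon 3 of 5), Immt (chr6:71853173-71853268, exon 6 of 15) and Stag2 (chrX:42266366-42266476, exon 31 of 34).
Ctnnd1, 63 bases: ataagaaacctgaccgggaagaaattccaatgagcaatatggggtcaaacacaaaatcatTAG
Spen, 114 bases: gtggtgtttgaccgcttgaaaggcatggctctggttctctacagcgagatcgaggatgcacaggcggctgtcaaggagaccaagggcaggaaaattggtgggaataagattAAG
Golga1, 129 bases: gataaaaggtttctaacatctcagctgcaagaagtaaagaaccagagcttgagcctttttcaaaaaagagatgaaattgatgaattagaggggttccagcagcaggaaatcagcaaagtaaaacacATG
Tlk2, 96 bases: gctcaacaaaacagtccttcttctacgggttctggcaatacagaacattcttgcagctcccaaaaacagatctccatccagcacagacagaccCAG
Abi1, 87 bases: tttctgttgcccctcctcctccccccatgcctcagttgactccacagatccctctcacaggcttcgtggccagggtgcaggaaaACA
Calml4, 141 bases: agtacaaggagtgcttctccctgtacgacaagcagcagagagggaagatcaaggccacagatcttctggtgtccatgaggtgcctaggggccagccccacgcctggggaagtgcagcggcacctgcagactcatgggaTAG
Immt, 96 bases: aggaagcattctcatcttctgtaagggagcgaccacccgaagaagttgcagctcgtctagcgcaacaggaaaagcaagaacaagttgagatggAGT
Stag2, 111 bases: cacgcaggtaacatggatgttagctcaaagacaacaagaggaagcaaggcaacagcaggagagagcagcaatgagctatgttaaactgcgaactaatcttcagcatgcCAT

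In Cd44, 8 consecutive exons, 6 to 13 of 19 on the minus strand of chromosome 2, were members, in 31 events that differ in their flanking exons and share reads. Every one of these 8 exons keeps the frame, so that any run of them can be left out with the codons downstream still in register. Exons 8 (chr2:102845285-102845410), 11 (chr2:102839358-102839477) and 12 (chr2:102837813-102837938) are printed because their levels are described for several cell types.
Cd44 exon 8, 126 bases: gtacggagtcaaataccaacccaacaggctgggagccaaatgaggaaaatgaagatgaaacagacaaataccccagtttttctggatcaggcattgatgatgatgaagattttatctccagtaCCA
Cd44 exon 11, 120 bases: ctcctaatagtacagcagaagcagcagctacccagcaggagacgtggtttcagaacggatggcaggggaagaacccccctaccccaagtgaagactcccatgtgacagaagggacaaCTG
Cd44 exon 12, 126 bases: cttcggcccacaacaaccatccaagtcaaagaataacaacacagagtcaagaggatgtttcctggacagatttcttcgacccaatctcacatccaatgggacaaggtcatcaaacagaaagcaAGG

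Members ran from 63 bases up to the last multiple of 3 under 200, with a median of 114. Of the 3181 exons, 3161 (99.4%) matched a GENCODE exon base for base, and 2873 of these (90.9%) were wholly coding, against 86.6% of matched frame-shifting exons of the same size. Among wholly coding members, 56.3% began at the first base of a codon, against 39.4% of the frame-shifting exons, so that a codon was split at neither end of them. The last base was G in 79.6% of members and 77.2% of frame-shifting exons, and the last 3 bases were CAG or AAG, as in Spen and Tlk2 above, in 43.6% and 41.5%. The median GC content was 50% and 48.7%. Both flanking junctions of inclusion were annotated for 93.4% of member events, but the junction of skipping for 36.3% (1229), against 29.1% of frame-shifting events. At the short edge of the rule, 80 events had 63 bases and 79, just outside, had 60. At the long edge, 27 events had the last length inside and 29 the next multiple of 3. In Stem, the median inclusion level of the events with at least 10 reads in each Stem and AbsPro library was 63.3% at 63 bases (11 events) and 81.6% at 60 (9), and at the long edge 99.1% inside (6) and 83.5% outside (3).

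The inclusion level is the percentage of mRNA of an event that holds the exon, from reads that support inclusion and reads of the skipping junction, each divided by the length that can give such reads. Reads within the exon count toward inclusion, so unspliced RNA adds to it. Reads that lay in no exon of an annotated gene made up 41.3 to 49.8% in Stem, AbsPro and SecPDG, 43.9 to 68.4% in tuft cells, 67.2 to 83.3% in Ent and 64.9 to 89.9% in EEC, and their part in the levels was not tested. Reads on genes came to 4122122 to 22462518 per library. Lgr5 was highest in Stem, Dclk1 in tuft cells and Chga in EEC, as the labels have it. Summed absorptive markers (Aqp8, Car1 and Slc26a3) were 2160 to 3800 CPM (counts scaled to library size with TMM factors) in Ent and 4240 to 6470 in AbsPro, but 286 in 1 EEC library and 6290 in the other, where Aqp8 and Car1 passed every Ent library. The EEC levels below thus include a library with absorptive markers, whose part in them was not tested, and which of the EEC libraries of an event it is cannot be told. Muc2, a goblet cell mucin, was as high in tuft cells (27600 to 70900 CPM) as in SecPDG (26200 to 83500). Of the same list, Spdef was lower in tuft cells (213 to 420 CPM) than in SecPDG (440 to 530). Clca1 was at 1140 to 15500 CPM in tuft cells and 3950 to 62600 in SecPDG. In Ent, Muc2 was at 4720 to 14200 and Clca1 at 4650 to 16100 CPM. Summed immune markers were 73.8 to 224 CPM in tuft cells, nearly all of it Ptprc, which encodes Cd45, and at most 52.2 elsewhere, and Pecam1, which encodes Cd31, was at 45.2 to 53.6 CPM in EEC, although both proteins were gated out. In tuft cells Cd3e and Cd79a, of the same immune list, reached at most 3.6 and 6.65 CPM. In EEC Cdh5, listed with Pecam1, was at 0.355 to 14.4 CPM. Which cells the Ptprc and Pecam1 reads came from, and their part in the levels, was not tested. The event tables number their libraries without naming them, so an event's library could not be matched to a gene count. Fewer cells of a type and less RNA per cell cannot be told apart in such bulk samples.

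In all cell types most members were mostly included, and the spread among libraries was wide. Among the 433 members with at least 10 reads in each Stem and AbsPro library, the median level was 89.9% in Stem and 91.5% in AbsPro, 49.7% and 53.1% of members were at 90% or more, and 16.6% and 17.1% were under 50%. The Stem libraries were 18.3 percentage points apart at the median member, and 73 of 433 members (16.9%) were over 50 points apart. The spread was wider in members with fewer reads: the median range was 38.3 points in the 144 members with the fewest reads (21 to 84.7 per library), 18.8 in the next 145 and 7.38 in the 144 with the most (187 to 6820). The median level of these groups was 77.5, 89.7 and 96.4%, and a level near 100% leaves less room for a range, so depth and level cannot be told apart here. It was 23.8 points for the 244 members whose skipping junction is annotated and 10.3 for the other 189, whose median levels were 77.9% and 96.2%. In 48.2% of the Stem values every read supported inclusion.

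**Figure D1:**
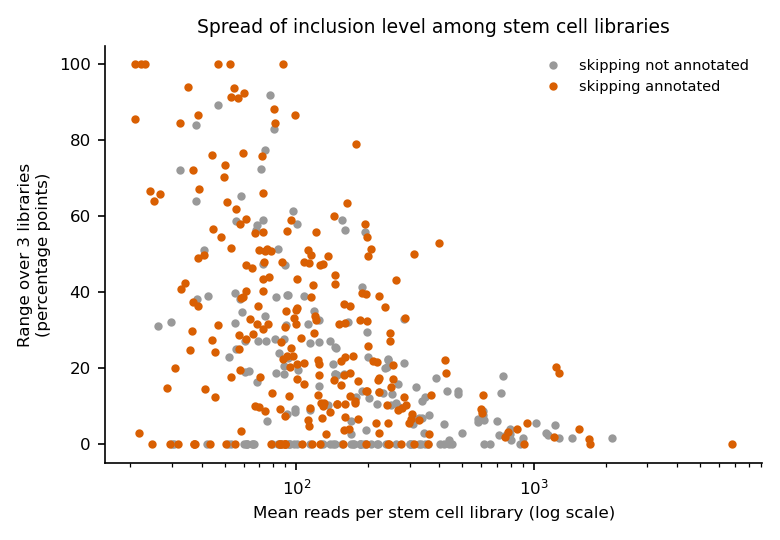
Range of the inclusion level over the 3 Stem libraries (percentage points) against the mean number of reads per library (log scale) for 433 members, each point 1 event, coloured by whether GENCODE holds its skipping junction. Ranges over 50 points lie mostly at the left, and 54 of the 144 members with the fewest reads exceed 50 points against 6 of the 144 with the most.

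Averaged over members, single libraries of Stem ran from 76.5 to 80.2% and of AbsPro from 76.7 to 78.1%, and they overlapped. On the 337 members with 10 reads in all Stem and SecPDG libraries, the mean was 78.1% ± 1.54 (SD, n = 3) in Stem and 80.8% ± 0.788 (n = 4) in SecPDG, whose lowest library (80.1%) was above the highest of Stem (79.6%). On 242 members it was 78.7% ± 1.85 in Stem and 81.2% ± 1.14 in tuft cells (n = 5), with libraries that overlapped (76.6 to 80.2% and 80.1 to 83.0%). Stem and Ent were at 80.4% ± 1.41 and 81.7% ± 1.11 (n = 5, 233 members), and Stem and EEC at 78.4% ± 3.33 and 81.6% ± 4.58 (n = 2, 73 members). These means are descriptions over 1 set of exons, and the comparisons share the Stem libraries.

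Frame-keeping exons were included less than frame-shifting exons of the same size in 21 of the 22 libraries. The libraries share exons, so this count does not measure how well the gap repeats. The mean gap was 5.02 points, and its SD over libraries (2.54) mixes their spread with the change of exon set. In Stem the 3 libraries were at 80.2, 77.5 and 76.5% for members and at 85.6, 85.8 and 85.2% for the frame-shifting exons. Shorter and longer exons, of any frame, had Stem means of 71.1% (164 events) and 80.5% (161). A level below that of the frame-shifting exons was thus not particular to members. The gap was 8.7 points in a Stem library and 0.7 in a tuft library, and 1 EEC library went the other way by 2.0 points. Stem and AbsPro were measured on 433 members, SecPDG on 337, tuft cells on 242, Ent on 233 and EEC on 73. Gaps are thus not compared across these sets. On the set of tuft cells, the Stem libraries were at 79.3, 80.2 and 76.6% for members and at 84.5, 83.1 and 83.1% for frame-shifting exons. No test was made, since the libraries of a set share the same exons.

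**Figure D2:**
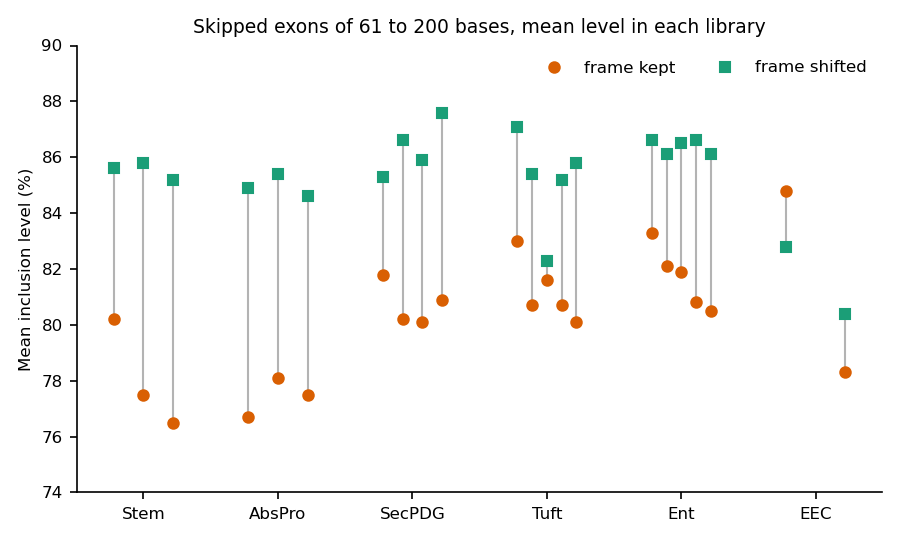
Mean inclusion level (%) in each of 22 libraries of members (circles) and of frame-shifting exons of 61 to 200 bases (squares), with a line joining the values of 1 library; the axis runs from 74 to 90%. Circles lie below squares in 21 of 22 libraries, and the exception is an EEC library at 84.8% and 82.8%. Stem and AbsPro share the same exons, and each other cell type has its own set, so gaps are not compared across sets.

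Between cell types, no member was called. Inclusion and skipping reads were compared by the quasi-likelihood F test of edgeR with Benjamini-Hochberg adjustment over every event that had enough reads, a call being an adjusted p under 0.05, and 0% of all events were called as well. Of 661 members tested in Stem against AbsPro, 2 had an unadjusted p under 0.05, as did 5 of 603 against SecPDG, 8 of 553 against tuft cells, 27 of 441 against Ent and 6 of 272 against EEC. In AbsPro against SecPDG it was 8 of 462. Among all events it was 4 of 1903 in AbsPro, 10 of 1729 in SecPDG and 18 of 1573 in tuft cells. It was 52 of 1292 in Ent, 12 of 798 in EEC and 18 of 1273 in AbsPro against SecPDG. By chance alone a share of about 0.05 would fall under this threshold, and every share of all events was lower. The share of members was lower too, except in Ent, where it was 6.12%. Over all events the test was thus conservative, so its lack of calls says little about whether members differed. DESeq2 also called no member, and a quasi-binomial model called 1 against AbsPro (4 of all 1903 events), 2 against Ent (4 of 1292) and 13 against EEC (39 of 798) and none in the other 3. The 13 of 272 members in EEC are the same share as among all events there. The smallest adjusted p of a member against AbsPro was 0.97 with edgeR. The common dispersion, which measures the spread of reads between libraries, was 1.04 to 1.81 in the 6 comparisons. A p above the threshold does not show that the levels were alike.

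The typical member differed little from Stem. The median difference of the members tested was 6.77 points in EEC, 2.41 in tuft cells, 1.82 in Ent, 1.8 in SecPDG and -0.265 in AbsPro, where a value above 0 means more inclusion than in Stem, and 2.13 in SecPDG relative to AbsPro. The middle 50% of members lay between -11.3 and 9.13 points in AbsPro and between -3.22 and 22.4 in EEC. In EEC, 74% of values of the 73 members with at least 10 reads per library came from inclusion reads alone.

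Few members had libraries that did not overlap between cell types. In AbsPro, 12 of 433 were above all Stem libraries and 7 below, where 1.86% and 2.75% of all events were. In SecPDG, 7 of 337 were above and 4 below (all events 1.81% and 1.31%). Shares of members this close to the background are no result about members. In tuft cells it was 6 and 1 of 242 (1.67% and 0.556%), and in Ent 2 and 4 of 233 (1.14% and 2.14%). In EEC, with 2 libraries, 6 and 2 of 73 did not overlap (10% and 3.47%), and with at least 20 reads in each library 2 and 1 did not. In SecPDG against AbsPro, 7 and 4 of 243 did not overlap (2.91% and 2.22%). A mean difference of 25 points or more was found in 44 of 433 members in AbsPro (10.2%, all events 9.3%), of which 7 did not overlap, and in 27 of 337 in SecPDG (8.01%, all events 7.44%), of which 6 did not. It was found in 19 of 242 in tuft cells (7.85%, all events 5.15%), in 14 of 233 in Ent (6.01%, all events 4.56%) and in 15 of 73 in EEC (20.5%, all events 21.6%), of which 4, 1 and 4 did not overlap. These shares too are near those of all events.

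The members described next were picked from these by the size of their difference, or because the study names their gene, so their differences are descriptions. Where edgeR's estimate is given, it is the change in the log2 odds of inclusion in the fit over all events. The SE of an edgeR change, here and for genes, was derived from the change and its F statistic. Values are listed by place, and intervals are 95% Wilson intervals, which cover counting error alone.

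Among genes of adhesion, Ctnnd1, which encodes the p120-catenin that binds cadherins at junctions, had a 63-base exon that was lower in several cell types. It was at 95.4, 78.6 and 83.7% in the 3 Stem libraries, on 122 to 245 reads. In AbsPro it was at 53.1, 17.9 and 49.0%, and in SecPDG at 57.3, 69.6, 18.1 and 59.8%. Every library of both progenitors was below every Stem library, although in each of them 1 library stood far below the rest. Tuft cells were at 61.8, 65.5, 64.3, 75.9 and 69.3%, also below Stem, whereas Ent (89.1, 66.9, 80.1, 85.9 and 96.3%) overlapped it. The only EEC library with reads was at 94.3% (89.2 to 97.1%). By edgeR the change was -3.46 ± 2.96 (SE) in AbsPro with an adjusted p of 0.97, -2.74 ± 2.55 in SecPDG with 0.984 and -1.76 ± 2.15 in tuft cells with 0.986, so none passed the test. All 3 contrasts share the Stem libraries. Ctnnd1 itself did not pass the gene test in any cell type (log2 change 0.26 ± 0.40 in AbsPro, adjusted p = 0.942, and 0.10 ± 0.37 in SecPDG, 0.953). A second Ctnnd1 member, of 72 bases, was included in 99.0 to 100% in Stem and SecPDG.

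In Cd44, each exon was measured in an event of its own, between flanking exons of which at least 1 is itself among these 8. Exons 9, 10, 11 and 12 were measured in RNA that holds exons 10, 11, 12 and 13, exon 8 in RNA that holds exon 12, and exon 13 in RNA that holds exon 12. A level is thus a share of such RNA and not of all Cd44 mRNA, so that the exons are compared between cell types but not with each other. Exon 13, the last of these 8, was at 98.2 to 100% in the Stem libraries on 1240 to 1346 reads. It was at 95% or more in every library of the other cell types (3 to 559 reads). Exon 12 was at 88.9, 75.9 and 77.9% in Stem and at 100% in all 3 AbsPro libraries (78 to 99 reads). Here AbsPro lay above every Stem library and above SecPDG (93.7, 87.9, 86.1 and 87.2%), and edgeR's change against Stem was 6.10 ± 3.07 with a p of 0.0468 and an adjusted p of 0.97. The inclusion junctions of that event are not both in the annotation. Exon 11 was at 66, 58.9 and 51.9% in Stem and 72.2, 63.6, 66.4 and 72.1% in SecPDG. In tuft cells it ran from 2.78 to 100%, so that nothing could be read from that cell type. Exon 8 was at 4.79, 0.694 and 10.9% in Stem, and at 26.8, 17.2, 29.1 and 14.4% in the 4 tuft libraries with reads, all above Stem. The adjusted p of this difference was 0.986, with a change of 2.70 ± 2.42. Exon 9 was at 59.5, 94.7 and 94.6% in Stem, and exon 10 spread from 36.1 to 100% there. Exon 7 had at least 10 reads in 2 Stem and 1 SecPDG library only. These events share reads, and Ent and EEC held too few Cd44 reads for most of them. Cd44 protein was a gate of the sort, so its gene level (726 ± 50.1 CPM in Stem, 25.1 ± 6.24 in Ent) is no finding.

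**Figure D3:**
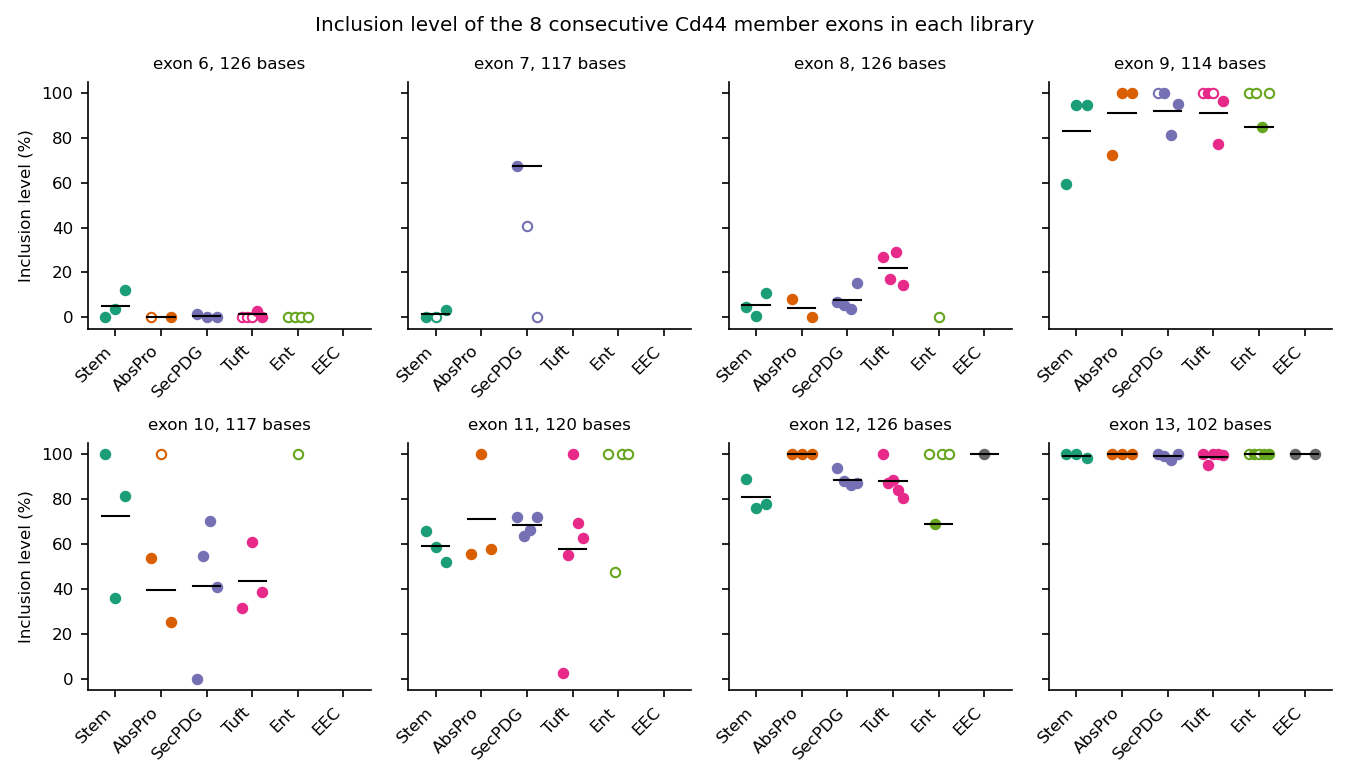
Inclusion level (%) of Cd44 exons 6 to 13 in each library by cell type, using for each exon the event with the most reads, whose flanking exons differ from panel to panel; filled points have at least 10 reads, open points fewer, and lines are means of filled points. Exon 13 is near 100% throughout, exon 12 is at 100% in AbsPro, and exon 8 is below 30% in every library.

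Other adhesion and cytoskeleton members differed with less depth or more spread. For Abi1, a subunit of the WAVE complex that drives actin branching, the 87-base exon was at 5.42, 29.3 and 13.2% in Stem and at 36.9, 47.9, 50.8 and 49.9% in SecPDG. All SecPDG libraries were above Stem, on 21 to 97 reads, and 4 of 5 tuft libraries were at 52.6 to 84.7%, the other being at 0% on 6 reads. Cobl, an actin nucleator of microvilli, had its 171-base exon at 0, 10.4 and 10.9% in Stem and 100, 35.5, 100 and 68.8% in SecPDG, but on 14 to 18 reads. The 2 AbsPro libraries with reads (100%) and 4 tuft libraries (22.7 to 100%) were also above Stem, though not every library there had 10 reads. Ent (0 to 59.5%) overlapped Stem. Paxillin (Pxn), a focal adhesion adaptor, was at 84.9, 8.84 and 45.3% for its 102-base exon in Stem, and at 0% in both EEC libraries, below all 3. Plekha6, a protein with a PH domain, was at 48.9, 47.9 and 45.2% in AbsPro and at 0, 31.1, 27.1 and 44.7% in SecPDG. Itga6, the laminin-binding integrin α6, had 2 members, both at 98.5% or more in every library of Stem and Ent. These were exons 13 and 16 of 26, and neither is the exon whose splicing the study discusses.

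Of the members in the list of 75 genes of adhesion, junctions and polarity, 1 was above and 1 below Stem without overlap among 20 in AbsPro and among 30 in SecPDG, and those were in Cd44 and Ctnnd1 in both. Over all events it was 1.86% and 2.75% in AbsPro and 1.81% and 1.31% in SecPDG. The Cd44 event counted in SecPDG is none of those described above, in which SecPDG overlapped Stem. The median difference of the members tested in this list was -0.607 points in AbsPro and 0.524 in SecPDG, beside -0.265 and 1.8 over all members. No member of this or the following lists was called. Without overlap, the membrane traffic list had Golga1 above Stem in AbsPro, SecPDG and tuft cells and Sec31a below it in SecPDG, of 18, 12 and 13 members. The chromatin list had 1 member above and 1 below among 23 in AbsPro, the metabolic list 1 above among 10 there, and the cell cycle list Stag2 below among 9. Among members in splicing regulators themselves, 0 of 6 did so in AbsPro and 0 of 7 in tuft cells.

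Members were also described in a pair of brush border genes, whose proteins sit in the adhesion complex between microvilli. The 141-base exon of Calml4, a calmodulin-like protein, was at 76.5, 66.1 and 69.3% in Stem, 63, 50.1 and 58.2% in AbsPro and 100, 79.4, 92.6 and 79.5% in SecPDG. AbsPro was therefore below and SecPDG above all Stem libraries, on 62 to 214 reads, and both EEC libraries were at 100% on 15 and 56 reads. Tuft cells (67.3 to 100%) and Ent (44.2 to 74.3%) overlapped Stem. Ush1c, which encodes harmonin, had its 117-base exon at 0% in all 3 Stem libraries on 161 to 257 reads. In EEC it was at 100% and 5.64%, a wide gap between 2 libraries of 31 and 26 reads. Its levels in tuft cells (0 to 31.4%) and Ent (0 to 5.64%) overlapped Stem.

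Members of membrane traffic genes are given next. Golga1, the trans-Golgi coiled-coil protein golgin-97, had its 129-base exon at 26.0, 66.3 and 61.7% in Stem and 74.2, 100 and 70.3% in AbsPro. SecPDG was at 100, 88.7, 100 and 90.1% and tuft cells at 100, 94.8, 100, 91.2 and 91.9%. Each of these 3 cell types lay above Stem, and Ent (51.0 to 100%) did not, while the only EEC library with reads was below Stem, at 15.7% on 10 reads. Sec31a, of the COPII coat that buds from the endoplasmic reticulum, was at 100% in every Stem library for a 78-base exon (143 to 272 reads). In SecPDG it was at 73.3, 88.4, 98.6 and 91.0%, all below Stem, on 305 to 478 reads. Rab27b, a GTPase of secretory granules, had a member in its untranslated region at 0 to 3.23% in Stem and at 8.4, 32.8, 25.9, 6.49 and 13.9% in Ent. Akap9, a kinase anchor of the Golgi and centrosome, was at 94.3, 100 and 84.9% in Stem and 76.4, 82.1, 77.6, 77.7 and 84.5% in Ent, so that the groups only just failed to meet.

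**Figure D4:**
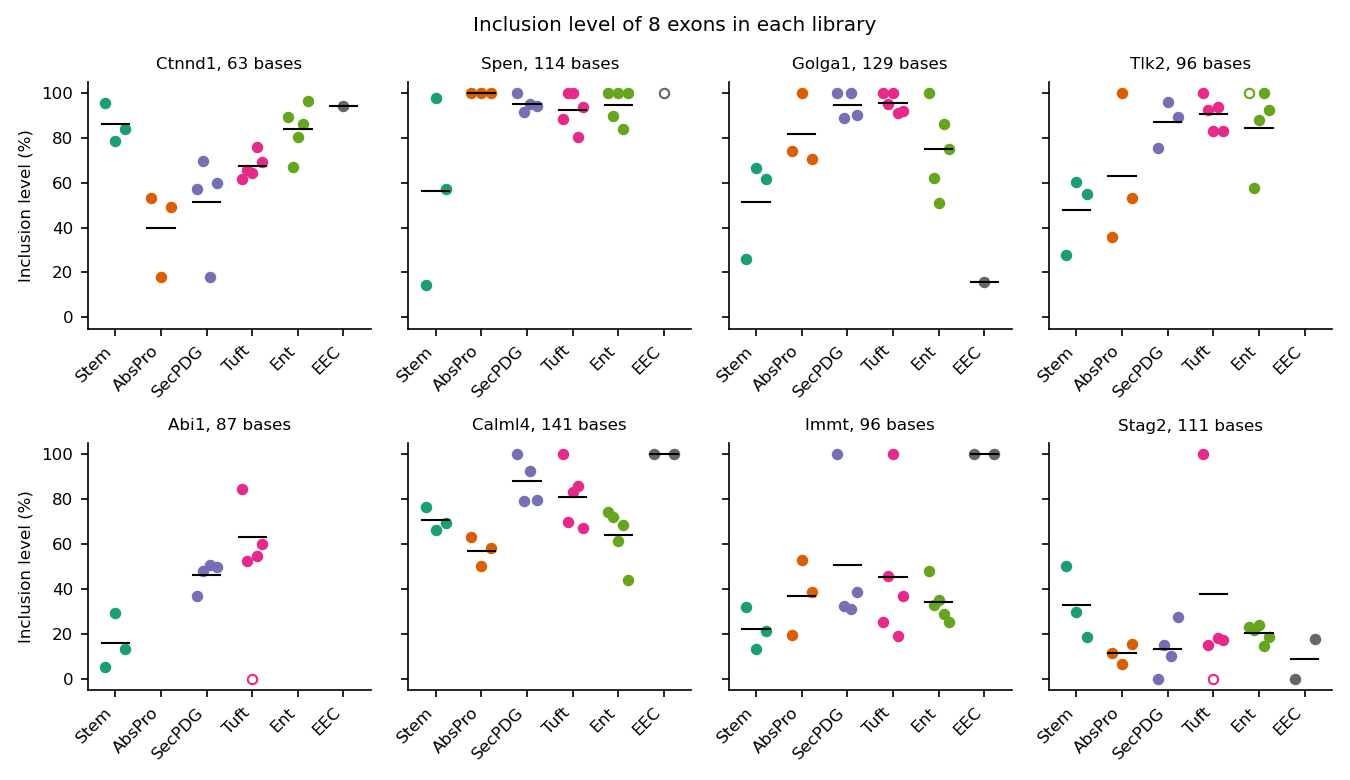
Inclusion level (%) of 8 exons in each library by cell type; filled points have at least 10 reads, open points fewer, and lines are means of filled points. Ctnnd1 is lower in AbsPro, SecPDG and tuft cells than in Stem, Golga1 is higher in the same 3, and single libraries at 0 or 100% stand apart in Immt and Stag2.

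Among regulators of RNA, chromatin and the cell cycle, Spen, an RNA-binding corepressor of Notch targets, had its 114-base exon at 100% in all 3 AbsPro libraries on 51 to 72 reads. In Stem it was at 14.5% (9.17 to 22.2%), 97.6% and 57.0%, so that the mean difference of 43.6 points rests on a spread of the same order within Stem. SecPDG was at 100, 91.6, 95.2 and 94.0%, tuft cells at 80.3 to 100% and Ent at 84.0 to 100%, all overlapping Stem. By edgeR the change in AbsPro was 7.17 ± 4.01 with a p of 0.0733 and an adjusted p of 0.97. A second Spen exon, of 69 bases, had no reads in 1 Stem and 2 AbsPro libraries, and was at 91.4% and 58.7% in the other Stem libraries and 16.1% in the AbsPro library. For Cbfa2t2, a transcriptional corepressor, the 144-base exon 2 was at 100, 100 and 90% in Stem on 4 to 25 reads and 44.9, 0 and 57.0% in AbsPro on 13 to 18. AbsPro was below Stem in every library, but the change of -5.61 ± 4.72 had an adjusted p of 0.97. In SecPDG it could be read in 2 of 4 libraries, at 87.4% and 55.0%.

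Tlk2, a kinase of histone chaperones, was at 27.6, 60.4 and 55.0% in Stem for its 96-base exon and at 100, 92.1, 83.1, 93.8 and 82.8% in tuft cells. The 3 SecPDG libraries with reads (75.3, 96 and 89.2%) were also above Stem, while AbsPro (35.6, 100 and 53.1%) spanned it. Stag2, a cohesin subunit, had its 111-base exon at 50.3, 29.9 and 18.6% in Stem and 11.7, 6.79 and 15.5% in AbsPro, on 107 to 208 reads. All AbsPro libraries were below Stem, and so were both of EEC, at 0% on 111 reads and 17.9%. SecPDG (0 to 27.6%), tuft cells (0 to 100%) and Ent (14.7 to 23.9%) overlapped Stem. Chd2, a chromatin remodeller, was at 100, 92.0 and 87.2% in Stem and 69.4, 29.8 and 85.6% in AbsPro. Its levels in SecPDG (89.0 to 100%), tuft cells (50.9 to 100%) and Ent (61.1 to 100%) overlapped Stem. Ski, a repressor of TGF-β signalling, and Tnrc18 differed between the progenitors: Ski was at 69.6, 0 and 14.6% in AbsPro and 100, 100, 100 and 71.0% in SecPDG, and Tnrc18 at 74.7, 55.9 and 39.4% and at 100% in all 4. In Stem, Tnrc18 was at 100, 63 and 75.2%, which overlapped both. Plekha5, with a PH domain, had a 189-base exon at 5.35, 4.34 and 4.75% in AbsPro and at 0% in every Stem library.

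Metabolic and proteolytic members were as mixed. Immt, which encodes the mitofilin of mitochondrial cristae, was at 32.0, 13.1 and 21.3% in Stem and at 100% in both EEC libraries (16 and 34 reads) for its 96-base exon. AbsPro (19.6, 52.9 and 38.7%), SecPDG (31.2 to 100%), tuft cells (18.9 to 100%) and Ent (25.3 to 48.0%) all overlapped Stem. Spint2, an inhibitor of membrane serine proteases, gave the narrowest intervals of this group, since its 171-base exon had 582 to 1664 reads in Stem and Ent. It was at 4.98, 8.54 and 4.44% in Stem and 11.7, 12.6, 10.7, 9.16 and 16.4% in Ent, above Stem in all 5. The 2 EEC libraries were at 60.3% and 3.37%, far apart from each other. Serpinb6a, an inhibitor of proteases within the cell, had a partly coding exon of 168 bases at 60.7, 9.22 and 9.36% in Stem. SecPDG was at 0% in 3 libraries and 0.783% in the other, and Ent at 0.355 to 3.08%, all below Stem.
Samhd1, which breaks down deoxynucleotides, had a partly coding 123-base exon at 0, 2.48 and 2.89% in Stem and 45.3, 49.8 and 64.1% in AbsPro. Tuft cells ran from 5.28 to 100% and SecPDG from 6.92% (7 reads) to 100%, above Stem but too far apart for a level. Ambra1, of autophagy, was at 30, 90 and 76.2% in Stem and 96.7, 96.9 and 94.8% in AbsPro for its 87-base exon. Usp33, a deubiquitinase, was at 100, 100 and 96.1% in Stem and 80.5, 96.1, 89.9, 93.9 and 69.6% in Ent, where the highest Ent and the lowest Stem library nearly met. No member was found in Eif4a2, a further gene that the study discusses.

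On the 127 members with at least 10 reads in each of the 20 libraries other than EEC, the mean level was 79.6% ± 1.91 in Stem, 81.8% ± 1.94 in AbsPro, 82.1% ± 2.06 in SecPDG, 83.0% ± 2.01 in tuft cells and 81.9% ± 1.76 in Ent. Single libraries of all 5 overlapped. In a typical member the means of the 5 cell types spanned 9.13 points, and the SD of libraries within a cell type was 7.05 points. A range of means and an SD of libraries are unlike measures, so their sizes do not show whether cell types differed. In 68 of the 127 the means lay within 10 points, and in 14 they spanned over 25.

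The genes that hold members were tested for their own level with edgeR over 22 libraries, a call being an adjusted p under 0.01 in a gene whose normalized counts averaged 50 or more. In all, 1 of 575 host genes of the members tested was called in AbsPro (0.174%, all genes 0.364%) and 28 of 508 in SecPDG (5.51%, all genes 3.1%). In tuft cells it was 32 of 467 (6.85%, all genes 6.37%), in Ent 70 of 396 (17.7%, all genes 13.4%) and in EEC 40 of 243 (16.5%, all genes 13.9%). All genes here means the 22781 tested, of which only the 13043 that averaged 50 normalized counts could be called. Of those 13043, 3055 were called in Ent and 3163 in EEC. Host genes were picked by reads on their exons, so the shares are not measured alike and no excess is read from them. Of those called in Ent, 9 were higher and 61 lower than in Stem, but 45 and 45 with DESeq2's size factors. In EEC it was 4 and 36, but 37 and 40, and in tuft cells 17 and 15, but 52 and 31. These counts also moved with single libraries: without EEC 1 they were 62 in SecPDG, 95 in tuft cells and 223 in Ent, without Stem 1 they were 17, 18 and 34, and in EEC 126 without EEC 2. No member was called, so a host gene could not be matched with a called exon.

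Of the 73 genes listed as splicing regulators, such as SR proteins and hnRNPs, none was called by edgeR in AbsPro or SecPDG. DESeq2 called none in AbsPro, 4 lower and 1 higher in SecPDG, 12 lower and 1 higher in tuft cells, 30 lower and 4 higher in Ent and 26 lower and 7 higher in EEC. By edgeR, in Ent 28 were lower than in Stem and none higher, and in EEC 20 were lower and 4 higher. With DESeq2's size factors 26 were lower and 1 higher in Ent, and 22 lower and 6 higher in EEC, and 1 was lower and 1 higher in SecPDG. The count in Ent ran from 14 (without Ent 2) to 46 (without EEC 1), and that in EEC from 12 (without EEC 1) to 45 (without EEC 2). In tuft cells 2 were lower, 7 with the size factors and 8 with a replicate block, and none was called without Stem 2, Tuft 1, Tuft 2 or Tuft 3. The median log2 change of the list was -1.03 in Ent and -1.07 in EEC, where 13043 genes whose normalized counts averaged 50 or more had medians of -0.31 and -0.34. With DESeq2's size factors the list was at -0.50 and -0.49, and 14040 such genes were at 0.32 and 0.47.

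Srsf7, an SR protein, was at 209 ± 74.1 CPM in Stem (n = 3), 58.2 ± 23.9 in Ent (n = 5) and 46.9 ± 17.1 in EEC (n = 2). It fell in Ent by 1.84 on the log2 scale (edgeR adjusted p = 0.000105) and in EEC by 2.16 (0.000739). In tuft cells Srsf7 was called at -1.28 (edgeR adjusted p = 0.00712) and Raly at -1.18 (0.00669), calls that the fits without Stem 2, Tuft 1, Tuft 2 or Tuft 3 did not make, nor that without Stem 1 for Raly or that without Stem 3 for Srsf7. In SecPDG Srsf7 was at -1.17 (edgeR adjusted p = 0.0381, over the threshold), but passed with the size factors (0.000529) and with DESeq2 (8.55e-06). Raly, an hnRNP-like protein, was at 199 ± 11.0 CPM in Stem, 67.0 ± 22.4 in Ent and 34.7 ± 13.7 in EEC, and fell by 1.57 (edgeR adjusted p = 0.000257) and 2.52 (5.48e-05). With DESeq2's size factors the change was -1.34 and -1.45 for Srsf7 and -1.06 and -1.85 for Raly. The share of reads in no annotated exon was also highest in Ent and EEC, and its part in these changes was not tested.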

How the data were processed

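The authors aligned paired reads of 100 bases to mm10 with STAR 2.5.2a, counted genes with HTSeq 0.6.1p1 without regard to strand and ran rMATS turbo on Stem and 1 other cell type at a time. They deposited raw gene counts per library, and tables of skipped exons with inclusion and skipping reads (junction and exon body) for each library by place. The authors' p-values, FDR and level differences were not used, nor were their tables of local splicing variations and polyadenylation. Rows of the gene counts that name no gene (5 per library) stayed out of totals.

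Events were joined across the 5 tables by coordinates; Stem counts of joined events were identical in 30943 of 30943 pairs. An event was tested with a mean of at least 10 reads per library in both cell types and at least 10 reads of each form, with edgeR 4.0.16 (R 4.3.3), 1 term per library, form and their interaction with cell type. Groups came from the labels. AbsPro against SecPDG used events in both tables. Genes were tested with edgeR after filterByExpr and TMM scaling; DESeq2 1.42.0 and limma 3.58.1 served as alternatives. The edgeR fits were tested on simulated data. Members and gene lists were chosen with earlier results of these data known. By rule, the text names the 3 largest increases and decreases per comparison among called members with libraries that do not overlap and at least 10 reads each, each exon once, and members in genes the study discusses for splicing. No member was called, so that condition was dropped after the values were seen. Python 3.11.15 with pandas 2.3.3 gave levels and overlaps. Reads carry no molecular identifiers, and replicates may share technical spread.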

Additional observations from a re-analysis of the deposited data

Results flagged for a closer look

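In groups of 4 or 5 libraries with at least 10 reads each, 63 groups of the members described were examined for a library far from the others (Dixon's criterion), and 14 were found. The criterion flags about 1 in 20 groups by chance where values vary freely, but in 7 of the 14 all other libraries were tied at 0 or 100%, where any gap is flagged, so that rate does not hold here. In SecPDG, the Immt exon had a library at 100% with the others at 31.2 to 38.5%, and the Pxn exon one at 100% with the others at 14.4 to 23.7%. In tuft cells, the Plekha6 exon stood at 100% in 1 library and at 47.0 to 48.7% in the rest, the Rab27b exon at 61.2% against 0 to 6.16%, and the Ush1c exon at 31.4% against 0 to 4.38%. Ski had 1 SecPDG library at 71.0% with the others at 100%. The remaining flags concern small gaps near 0 or 100%. In SecPDG these were Serpinb6a at 0.783% and Plekha5 at 3.68% with the others at 0%, Usp33 at 98.2% and the 72-base Ctnnd1 exon at 99.0% with the others at 100%. In tuft cells Usp33 was at 94.1% (others 98.6 to 100%) and Cd44 exon 13 at 95% (others 99.6 to 100%). In Ent the Itga6 exons were at 98.8% and 98.5%, with the others at 100%.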

How the results depend on the processing

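With DESeq2, with other minimum reads, thinned counts, subtraction of the median change, 1 event per exon and each library left out in turn, 0 members were called in all 6 comparisons. The quasi-binomial model called 1 member in Stem against AbsPro, 2 against Ent and 13 against EEC, of 4, 4 and 39 events in all. Of the fits added after the count of 0 was seen, limma on the log2 odds with 10 reads in every library called 1 member against SecPDG, 2 against EEC and 1 in AbsPro against SecPDG, of 2, 5 and 2 events. With 20 reads it called 2 against EEC, of 3 events. Limma on the level and on its arcsine root with 10 reads, and edgeR with a dispersion of 0, each called 1 against EEC (of 3, 3 and 1 events), and edgeR's likelihood ratio test called 0. With at least 20 reads in every library, the members above Stem without overlap numbered 1 in Ent and 2 in EEC, and 1 was below in EEC. The median difference kept its sign in all 5 comparisons without the correction for length. Counts of host genes, chosen as a measure after the data were seen, were unstable. They came to 12, 83, 122, 123 and 92 with DESeq2 in AbsPro, SecPDG, tuft cells, Ent and EEC, and with its size factors to 3, 66, 83 and 77 in AbsPro, SecPDG, tuft cells and EEC. Leaving out 1 library gave 1 to 5, 17 to 62, 18 to 95, 34 to 223 and 28 to 126. The highest counts came without EEC 1 in all but EEC itself, where it was without EEC 2, and the lowest in SecPDG, tuft cells, Ent and EEC without Stem 1. The replicate block moved tuft cells to 58 and Ent to 122. Libraries of different cell types share only a number: deviations of same-numbered libraries correlated from -0.38 to 0.55 over 44 pairs, and 5 of 22 libraries correlated best with their own number. Events carry no library names, so no paired analysis was possible for them. Depth limits members with few reads, whose Stem libraries lay far apart, and EEC with 2 libraries.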
